A study of Mus musculus with 6 samples.

Results

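Integrins are adhesion receptors built from an alpha and a beta subunit, and 10 subunit genes of hematopoietic stem cells (HSC) are described here: the alpha genes Itga1, Itga4, Itga5, Itga6, Itgav and Itgal and the beta genes Itgb1, Itgb2, Itgb3 and Itgb7. They were taken by symbol from the 24062 genes of the deposited table, and all 10 were found and passed the filter on low values. The 10 were chosen by name, with their CPM in these same CDKO and control libraries already known. Their differences between the groups are therefore given as a description, with no p-value, and the number past a threshold is given only beside the share of all genes. Of the 26 integrin subunit genes of the mouse, the other 16 stand in a list of their own below.

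HSC are the cells that renew the blood, and integrins hold them in the bone marrow. By background, an alpha subunit largely sets which ligand is bound, and the beta subunit's tail binds talin and kindlin inside the cell, which switches the receptor on. The integrins alpha4 beta1 and alpha4 beta7 bind VCAM1 and MADCAM1 on vessels and stroma, alpha5 beta1 and alpha v beta3 bind fibronectin and other matrix proteins, alpha6 beta1 binds laminins, alpha1 beta1 binds collagens, and alpha L beta2 binds ICAM proteins on other cells.

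RNA was sequenced from HSC of CDKO mice, which carried Rosa26-ERt2 together with Nr4a1 fl/fl and Nr4a3-/-, and of control mice, which carried Nr4a1 fl/fl and Nr4a3-/- alone. There were 3 libraries in each group, every library being a pool of 3 to 5 mice. Both groups thus lacked Nr4a3 and had floxed Nr4a1, and both received tamoxifen at 120 mg per kg on each of 4 days before HSC were sorted on day 5. The Rosa26-ERt2 construct, by background a Cre recombinase switched on by tamoxifen, was carried by CDKO mice alone, so its effects and those of the Nr4a1 deletion cannot be told apart. The labels used here give no age, sex, sort markers or preparation dates, so a batch of preparation and the genotype cannot be told apart. The comparison therefore asks what differs in HSC already without Nr4a3 when floxed Nr4a1 meets this construct.

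Library depth ran from 32863805 to 42772261 counted reads, and levels are in counts per 1000000 reads (CPM). All 10 HSC markers looked at were detected, with a summed level of 4600 to 4810 CPM in CDKO and 5040 to 5300 CPM in control libraries. Nr4a1, the floxed gene, stood at 8.52, 9.76 and 9.12 CPM in CDKO libraries, against 15.2, 13.4 and 12.9 CPM in control libraries, and Nr4a3 had no read in any library. Which part of Nr4a1 is floxed is not given, so these reads may lie outside it. How complete the deletion was in these pools was not tested. Of 13732 genes tested with limma, 9096 passed an adjusted p of 0.05 (66.2%), 31.1% higher and 35.2% lower in CDKO libraries. The groups did not overlap for 70.7% of tested genes, with CDKO above for 33.4% and below for 37.2%. These are libraries of whole sorted pools, in which fewer cells of a type and less RNA per cell cannot be told apart.

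Measured across all 10 genes, the integrin message of HSC differed between groups by less than the spread between libraries, while single genes lay higher or lower. The summed level was 1327 ± 23.5 CPM in CDKO and 1335 ± 43.8 CPM in control libraries (SD, n = 3 each). Itga1, Itgb1, Itgb2 and Itgb3 were higher in every CDKO library than in any control library. Itga4, Itga5, Itgav and Itgb7 were lower in every CDKO library than in any control library. Itga6 and Itgal overlapped between the groups. The 8 genes that did not overlap were also the 8 past the limma threshold, 4 in each direction. Among all tested genes 66.2% passed (31.1% higher, 35.2% lower) and 70.7% did not overlap (33.4% above, 37.2% below), and nothing is read from that count because the members were chosen with this comparison known. Their median difference in log2(CPM + 1), CDKO minus control, was -0.085, against -0.02 over all genes tested.

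**Figure D1:**
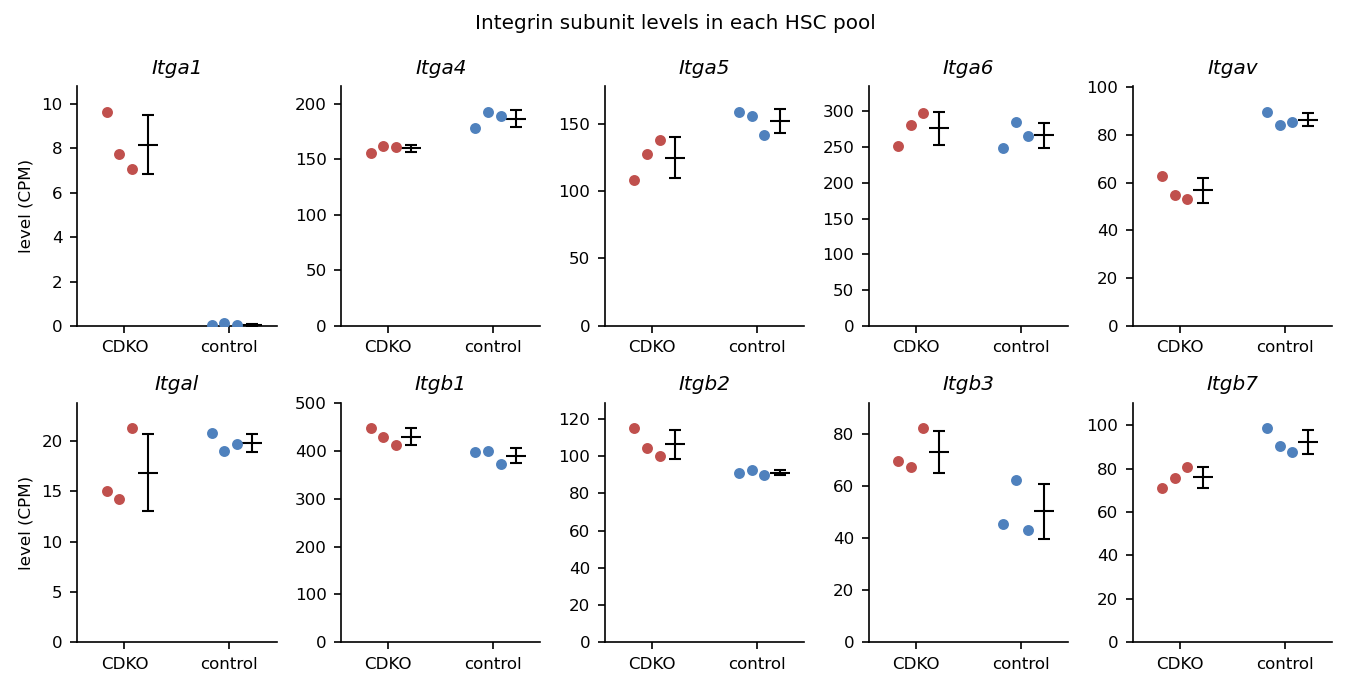
Level of each of the 10 integrin subunit genes in CPM (vertical axes, each from 0) in the 3 CDKO and 3 control libraries. Points are libraries, and the bar beside them is the mean with its SD. Itga1 is near 0 in control libraries, and Itgb3, Itgb2 and Itgb1 lie higher and Itgav, Itga4, Itga5 and Itgb7 lower in all CDKO libraries.

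Itga1 encodes the alpha1 subunit, a collagen receptor that pairs with beta1. It had 317, 321 and 303 reads in CDKO libraries, against 2, 4 and 1 reads in control libraries, or 9.65, 7.74 and 7.08 CPM against 0.0511, 0.110 and 0.0236 CPM. Transcripts of this gene were thus close to undetected in control HSC, where a count of 3 corresponds to at most 0.0823 CPM, and were present in every CDKO library. On summed reads the level was 135 times as high in CDKO as in control libraries, with an exact 95% interval of 65.4 to 338 that covers counting error only. The difference in log2(CPM + 1) was 3.10 (SE 0.16, n = 3 each), and only 7 tested genes lay above it. That value depends on the pseudocount and the model, from 1.37 with a pseudocount of 5 to 7.11 in DESeq2, because the control level is near 0. The gene Pelo lies within the span of Itga1 on the same strand, and stood at 21.8 ± 2.64 CPM in CDKO and 16.7 ± 0.858 CPM in control libraries. Exons of Gm49395, on the same strand, overlap 3.68% of the merged exon length of Itga1. Even in CDKO libraries Itga1 was the least abundant of the 10 genes, at 0.744 ± 0.121 CPM per kb of transcript.

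Markers of other cells that can carry Itga1 were looked at in the same libraries. T and NK cell markers summed to 117 to 127 CPM in CDKO and 74.6 to 79.5 CPM in control libraries, with 6 of 7 tested markers called higher and none lower. Most of that sum was Nkg7, at 57.99 ± 1.88 CPM in CDKO and 43.5 ± 2.59 CPM in control libraries, and Lck. Lck stood at 27.53 ± 0.320 CPM in CDKO and 18.24 ± 1.655 CPM in control libraries (SD, n = 3 each). Gzma, a granzyme, stood at 8.48 ± 2.06 CPM in CDKO and 0.676 ± 0.164 CPM in control libraries, Cd4 at 2.67 ± 0.400 CPM in CDKO and 0.225 ± 0.189 CPM in control libraries, and the NK receptor gene Klrb1c at 22.2 ± 1.91 CPM in CDKO and 12.97 ± 1.79 CPM in control libraries (SD, n = 3 each). Of the genes that define T cells, Cd3e, Cd3g and Cd8a had no read in any library. Endothelial markers summed to 266 to 292 CPM in CDKO and 213 to 228 CPM in control libraries, with 4 of 9 called higher and 2 lower. Most of that sum was Egfl7, at 137 ± 6.11 CPM in CDKO and 105 ± 5.49 CPM in control libraries, and Pecam1. Pecam1, also in the list of other HSC adhesion molecules below, stood at 98.1 ± 8.69 CPM in CDKO and 81.5 ± 2.59 CPM in control libraries (SD, n = 3 each). Of the genes for receptors of vascular growth factors, Flt4 stood at 11.99 ± 1.92 CPM in CDKO and 0.555 ± 0.509 CPM in control libraries, and Kdr at 7.88 ± 0.921 CPM in CDKO and 1.28 ± 0.340 CPM in control libraries (SD, n = 3 each). The endothelial cadherin gene Cdh5 was at or below 0.0482 CPM in every library, and Cldn5, of endothelial junctions, stood at 1.01 ± 0.913 CPM in CDKO and 6.12 ± 1.31 CPM in control libraries (SD, n = 3 each). Stromal markers summed to 61.3 to 64.4 CPM in CDKO and 70.9 to 82.2 CPM in control libraries, with 2 of 6 called higher and 2 lower. The part of these cells in the Itga1 level was not tested.

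Promoters are shown for Itga1, the gene that differed most, and for Itga4, which was abundant in both groups, as the 250 bases before the annotated start (RefSeq, GRCm38.p6, the assembly behind mm10). Itga1 lies on the minus strand of chromosome 13 (114953096 to 115101964 in GENCODE), and Itga4 on the plus strand of chromosome 2 (79255426 to 79333123). The others lie as follows in the same annotation, with Itga5 on chromosome 15 (103344286 to 103366763, minus strand), Itga6 on chromosome 2 (71745616 to 71858416, plus strand), Itgav on chromosome 2 (83724397 to 83806916, plus strand), Itgal on chromosome 7 (127296260 to 127335138, plus strand). The beta genes are Itgb1 on chromosome 8 (128685654 to 128733200, plus strand), Itgb2 on chromosome 10 (77530252 to 77565708, plus strand), Itgb3 on chromosome 11 (104608000 to 104670476, plus strand) and Itgb7 on chromosome 15 (102215995 to 102231944, minus strand). Capitals mark matches, on either strand, to 4 searched motifs, which were the NR4A response element AAAGGTCA, the RUNX motif TGTGGT, the GC box GGGCGG and the TATA motif TATAAA.
Itga1 promoter, minus strand, chr13:115101965-115102214: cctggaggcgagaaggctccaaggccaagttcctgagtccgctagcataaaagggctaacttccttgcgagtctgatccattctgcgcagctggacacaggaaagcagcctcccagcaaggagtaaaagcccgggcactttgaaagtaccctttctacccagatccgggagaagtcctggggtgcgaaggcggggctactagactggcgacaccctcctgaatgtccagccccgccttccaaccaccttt
Itga4 promoter, plus strand, chr2:79255176-79255425: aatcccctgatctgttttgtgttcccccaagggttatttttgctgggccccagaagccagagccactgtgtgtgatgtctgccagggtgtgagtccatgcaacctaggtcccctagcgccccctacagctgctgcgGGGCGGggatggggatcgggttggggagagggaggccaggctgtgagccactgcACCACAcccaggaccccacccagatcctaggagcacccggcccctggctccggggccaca
The Itga1 window held none of the 4 motifs, and the Itga4 window held a GC box and, on the other strand, a RUNX motif. Windows were at hand for 6 of the 10 genes (Itga1, Itga4, Itga5, Itgav, Itgb1 and Itgb7). None of these 6 held the NR4A element, which 1.34% of 32851 promoter windows of this length held. A GC box was in 3 of the 6, those of Itga4, Itga5 and Itgb1, against 32.7% of all windows, and the RUNX motif was in that of Itga4 alone, against 14.0% of all windows. No TATA motif was found in the 6, against 12.4% of all windows.

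Itgav, which encodes the alpha v subunit of receptors for vitronectin and fibronectin, had the lowest difference of the 10 genes. It stood at 62.7, 54.7 and 53.0 CPM in CDKO libraries, against 89.7, 84.1 and 85.5 CPM in control libraries. All CDKO libraries lay below all control libraries. The CDKO mean was 0.657 times the control mean (difference in log2(CPM + 1) -0.60, SE 0.07, n = 3 each). Of all genes tested, 16.5% had a lower difference.

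Itgb3, the beta partner of alpha v and of the platelet subunit alpha IIb, differed in the other direction. Its level was 69.5, 67.2 and 82.1 CPM in CDKO libraries, against 45.5, 62.3 and 43.0 CPM in control libraries. The groups did not overlap, although control replicate 2 came close to the lowest CDKO library. The CDKO mean was 1.45 times the control mean (difference in log2(CPM + 1) 0.54, SE 0.12, n = 3 each), and the difference was 0.70 without control replicate 2. Control libraries varied by an SD of 10.5 CPM, where counting error alone gives 1.13 CPM. Because Itgav was lower and Itgb3 higher, the ratio of Itgav to Itgb3, per transcript length, was 0.740, 0.668 and 0.530 in CDKO libraries, against 1.62, 1.11 and 1.63 in control libraries. Their ratio was therefore below 1 in every CDKO library and above 1 in every control library, but with all annotated exons merged as the length Itgb3 stood above Itgav in both groups.

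Platelet and megakaryocyte markers moved with Itgb3. Of 11 tested markers 10 were called higher and none lower in CDKO libraries, with a summed level of 613 to 624 CPM in CDKO and 429 to 453 CPM in control libraries, and Gp6 had no read in CDKO libraries. Itga2b, the alpha IIb gene and 1 of these markers, stood at 205, 222 and 232 CPM in CDKO libraries, against 186, 209 and 180 CPM in control libraries. The ratio of Itga2b to Itgb3, per transcript length, was 5.10 ± 0.412 in CDKO and 6.52 ± 0.758 in control libraries (SD, n = 3 each). Whether megakaryocytic cells contributed to the Itgb3 level was not tested.

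Itga4 and Itgb7, which together form alpha4 beta7, were lower in CDKO libraries by similar proportions. Itga4 stood at 156, 163 and 161 CPM in CDKO libraries, against 178, 193 and 189 CPM in control libraries, a ratio of means of 0.855 (difference in log2(CPM + 1) -0.22, SE 0.046, n = 3 each). Itgb7 stood at 71.3, 75.7 and 80.7 CPM in CDKO libraries, against 98.6, 90.5 and 87.6 CPM in control libraries, a ratio of means of 0.823 (difference -0.28, SE 0.065, n = 3 each). Neither gene overlapped between groups, and Itga4 was the steadiest of the 10 within CDKO libraries, with an SD of 2.07% of its mean. Since both were lower, the ratio of Itga4 to Itgb7 per transcript length overlapped between groups, at 0.580 ± 0.0285 in CDKO and 0.559 ± 0.0538 in control libraries. In the same libraries mast cell and basophil markers summed to 460 to 482 CPM in CDKO and 702 to 745 CPM in control libraries. Most of that sum was Gata2, which HSC express as well, at 459.4 ± 13.7 CPM in CDKO and 475 ± 12.3 CPM in control libraries (SD, n = 3 each). Without Gata2, an exclusion chosen after seeing the data, the sum was 7.0 to 11.7 CPM in CDKO and 213 to 275 CPM in control libraries. Of 7 tested, 6 were called lower and none higher, and Cma1, Mcpt4 and Tpsb2, which define mature mast cells, had no read in any library. Erythroid markers summed to 121 to 149 CPM in CDKO and 540 to 598 CPM in control libraries, with 6 of 8 tested called lower and none higher, and Hba-a1, Hba-a2 and Hbb-bt had no read in any library. The part of mast, basophil and erythroid cells in the levels of the members that were lower in CDKO libraries was not tested. Exons of Cerkl lie opposite 8.04% of the merged exon length of Itga4, and the sources used here do not state whether reads were counted by strand. Cerkl stood at 7.62 to 8.12 CPM in CDKO and 3.84 to 5.03 CPM in control libraries.

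Itga5, the alpha subunit of the fibronectin receptor alpha5 beta1, was lower in CDKO libraries as well. It stood at 108, 128 and 138 CPM in CDKO libraries, against 159, 156 and 142 CPM in control libraries. The groups did not overlap, but CDKO replicate 3 and control replicate 3 lay close to each other. The ratio of means was 0.820 (difference in log2(CPM + 1) -0.29, SE 0.080, n = 3 each), and the difference was -0.19 without CDKO replicate 1, the lowest library.

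Itga6 encodes the alpha6 subunit, a laminin receptor used to mark stem cells in several tissues. Its level was 252, 280.3 and 297 CPM in CDKO libraries, against 248.6, 285 and 265 CPM in control libraries, and the groups overlapped. The difference in log2(CPM + 1) was 0.05 (SE 0.065, n = 3 each). Leaving out 1 library at a time it ran from -0.000335 to 0.12, so that its direction was not fixed.

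Itgb1, whose beta1 product pairs with most of these alpha subunits, was the most abundant of the 10 genes. It stood at 447, 428 and 412 CPM in CDKO libraries, against 396, 399.9 and 373 CPM in control libraries. All CDKO libraries lay higher, with a ratio of means of 1.10 (difference in log2(CPM + 1) 0.14, SE 0.045, n = 3 each). The size of this difference depended on scaling, at 0.06 after quantile normalization and 0.15 with TMM factors. Itgb1 was no longer past the threshold after quantile normalization, without CDKO replicate 1 or without control replicate 3, where its difference was 0.06, 0.11 and 0.11. Relative to Itgb1, per transcript length, 3 of its alpha partners were lower in every CDKO library than in any control library. The ratio to Itgb1 was 0.146 ± 0.00827 in CDKO and 0.188 ± 0.0114 in control libraries for Itga4. For Itga5 it was 0.254 ± 0.0405 in CDKO and 0.339 ± 0.00882 in control libraries, and for Itgav 0.0715 ± 0.0038 in CDKO and 0.120 ± 0.0055 in control libraries (SD, n = 3 each). For Itga6 the groups overlapped.

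Among 12 alpha genes whose products can pair with beta1, Itga6 took the largest share of the message per longest coding transcript, 51.5 ± 0.885% in CDKO and 46.3 ± 1.84% in control libraries (SD, n = 3 each). With all annotated exons merged as the length that order turned in control libraries, with Itga6 at 30.6 and Itga5 at 25.3 CPM per kb in CDKO and Itga6 at 29.5 and Itga5 at 30.8 CPM per kb in control libraries. Itga5 followed with 21.4, 23.1 and 23.9% in CDKO libraries, against 27.8, 25.6 and 24.7% in control libraries. Itga4 took 13.2 ± 0.669% in CDKO and 14.4 ± 0.414% in control libraries. Itgav took 6.52 ± 1.04% in CDKO and 9.21 ± 0.576% in control libraries. Itga1 made up 0.604 ± 0.141% in CDKO and 0.00415 ± 0.00283% in control libraries, so that its large fold was a small part of the whole. Among the 8 beta genes, Itgb1 took 58.2 ± 1.18% in CDKO and 57.1 ± 0.207% in control libraries. Itgb2 took 18.5 ± 0.945% in CDKO and 17.2 ± 0.425% in control libraries, and Itgb3 6.53 ± 0.814% in CDKO and 4.85 ± 0.885% in control libraries. Itgb7 took 14.7 ± 1.21% in CDKO and 19.2 ± 0.965% in control libraries (SD, n = 3 each), and did not overlap between groups. These shares rest on the longest coding transcript of each gene, since the isoforms in these cells were not measured.

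**Figure D2:**
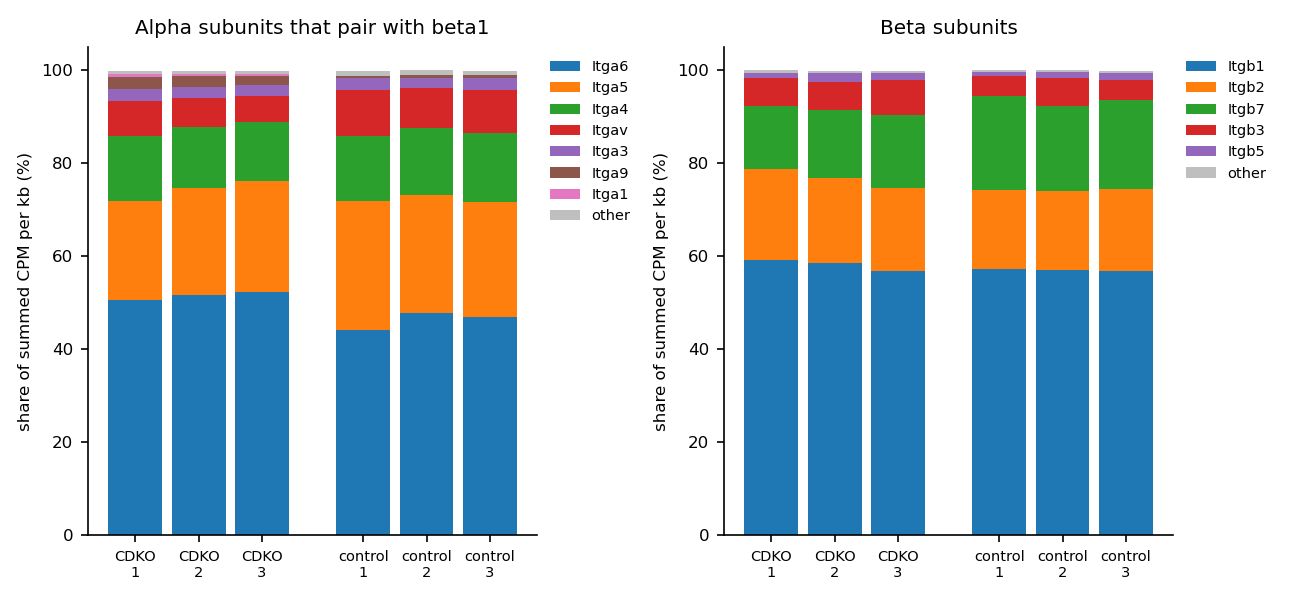
Share of the summed CPM per kb of transcript (vertical axes, percent) taken by each alpha subunit gene that can pair with beta1 (left) and by each beta subunit gene (right), in every CDKO and control library. Each bar is a library; Itga6 takes a larger share of the alpha genes in CDKO libraries, and Itgb7 a smaller share of the beta genes.

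Itgb2 encodes beta2, the leukocyte subunit that pairs with alpha L, alpha M, alpha X and alpha D. It stood at 115, 104 and 99.9 CPM in CDKO libraries, against 90.9, 92.3 and 89.97 CPM in control libraries. CDKO libraries were all higher, with a ratio of means of 1.17 (difference in log2(CPM + 1) 0.22, SE 0.059, n = 3 each), and control libraries lay within an SD of 1.18 CPM, below the 1.52 CPM that counting error gives. Itgal, the alpha L partner, stood at 15.0, 14.3 and 21.3 CPM in CDKO libraries, against 20.8, 19.0 and 19.7 CPM in control libraries. CDKO replicates 1 and 2 were lower than all control libraries and CDKO replicate 3 was above them, so the groups overlapped (difference -0.24, SE 0.14, n = 3 each). Without CDKO replicate 3 the difference was -0.41, and the Itgal SD in CDKO libraries was 3.84 CPM, where counting error gives 0.656 CPM. The ratio of Itgal to Itgb2 per transcript length was 0.0744, 0.0778 and 0.121 in CDKO libraries, against 0.130, 0.117 and 0.125 in control libraries.

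Neutrophils carry much beta2, and their markers went the other way from Itgb2. All 11 tested neutrophil markers were called lower, with a summed level of 25.9 to 89.3 CPM in CDKO and 798 to 1040 CPM in control libraries. Within CDKO libraries 10 of the 11 were highest in replicate 3, the library in which Itgal was also highest. The part of these cells in the Itgb2 and Itgal levels was not tested. Itgb2l, a paralog of Itgb2 that was looked at after values were seen, had 0 to 0.0304 CPM in CDKO and 0.795 to 1.38 CPM in control libraries.

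Ranked by level per kb of transcript, Itgb1 and Itga6 stood at the top in both groups, at 112 and 64.2 CPM per kb in CDKO and 102 and 61.8 CPM per kb in control libraries. In CDKO libraries Itgb2 came next at 35.8 ± 2.60 CPM per kb, above Itga5 at 28.4 ± 3.44 and Itgb7 at 28.3 ± 1.77, which did not differ beyond their spread. In control libraries Itga5 and Itgb7 came before Itgb2, at 34.7 ± 2.06, 34.4 ± 2.12 and 30.7 ± 0.397 CPM per kb (SD, n = 3 each). Itga4 followed in both groups, at 16.4 ± 0.338 CPM per kb in CDKO and 19.1 ± 0.784 CPM per kb in control libraries. Itgb3 and Itgav changed places, with 12.6 and 8.05 CPM per kb in CDKO and 8.69 and 12.3 CPM per kb in control libraries. Itgal followed at 2.73 to 4.07 CPM per kb in CDKO and 3.64 to 3.98 CPM per kb in control libraries, and Itga1 came last. With all annotated exons merged as the length, Itgb1 stayed first and Itgal and Itga1 last in both groups. By that length Itga6 came in place 3 in CDKO and place 5 in control libraries. Itgav and Itgb3 then did not change places, at 5.29 and 12.4 CPM per kb in CDKO libraries. In control libraries Itgav stood at 8.05 and Itgb3 at 8.52 CPM per kb. Itga4, at 11.4 CPM per kb in CDKO libraries, then came below Itgb3 there.

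The genes whose pattern over the 6 libraries was most like that of Itga1, by Pearson's r of log2(CPM + 1), were Cyc1, a respiratory chain subunit (r = 0.9995), Dhx58, a sensor of viral RNA (r = 0.9995), and Fam206a (r = 0.9994). In all, 388 genes had an r of at least 0.99 with Itga1. Such an r is near 1 for any gene that is higher in CDKO libraries and steady within each group. It does not depend on the size of the difference, and Cyc1 was only 1.17 times as high in CDKO as in control libraries. Shared regulation was not tested. For Itgav, the member with the lowest difference, the nearest were Gm15880 (r = 0.9979), Reep6 (r = 0.9977) and Trak2, a carrier of mitochondria (r = 0.9976), and 41 genes reached 0.99.

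The other 16 integrin subunit genes were mostly scarce, and 11 of them had enough reads to be tested. Of these 4 rose and 5 fell, with a median difference in log2(CPM + 1) of -0.12, against -0.02 and 31.1% higher and 35.2% lower among all genes tested. Itga9, which binds osteopontin and VCAM1, rose to 20.8, 20.5 and 17.0 CPM in CDKO libraries, against 3.94, 6.01 and 6.12 CPM in control libraries (limma adjusted p = 5.14e-06). Itgb4, the laminin receptor subunit that pairs with alpha6, rose to 6.30, 6.004 and 5.66 CPM in CDKO libraries, against 1.99, 2.08 and 2.15 CPM in control libraries (limma adjusted p = 1.98e-05). Itga10, a collagen receptor subunit, rose to 1.23 ± 0.155 CPM in CDKO, against 0.493 ± 0.189 CPM in control libraries (SD, n = 3 each; limma adjusted p = 0.0066). Itga2b also rose, but its call was lost without CDKO replicate 3, control replicate 1 or control replicate 3 (limma adjusted p = 0.0696, 0.061 and 0.0807). Over all its alternatives the adjusted p ran from 0.000964 in DESeq2 to 0.0807 in limma.

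Itga2, the collagen receptor subunit alpha2, fell to 3.26, 4.65 and 4.56 CPM in CDKO libraries, against 9.10, 9.63 and 7.41 CPM in control libraries (limma adjusted p = 0.000406). Of the collagen-binding alpha genes, Itga1 and Itga10 were thus higher and Itga2 lower in CDKO HSC, and Itga11 had at most 1 read in each CDKO library, against 16, 5 and 11 reads in control libraries, too few to be tested. Itgae, the partner of beta7 on lymphocytes of epithelia, fell to 2.50 ± 0.143 CPM in CDKO, against 6.70 ± 1.20 CPM in control libraries (SD, n = 3 each; limma adjusted p = 6.51e-05). Itgb6, a partner of alpha v, fell to 0.648 ± 0.227 CPM in CDKO, against 1.67 ± 0.704 CPM in control libraries (SD, n = 3 each; limma adjusted p = 0.0112). Of the alpha partners of beta2 besides Itgal, Itgam fell to 3.29, 10.3 and 5.99 CPM in CDKO libraries, against 14.2, 15.9 and 14.8 CPM in control libraries (limma adjusted p = 0.00208). Itgax fell to 0.0304, 1.11 and 0 CPM in CDKO libraries, against 7.21, 7.65 and 6.49 CPM in control libraries (limma adjusted p = 5.14e-06). Both mark mature myeloid cells, Itgam is itself in the neutrophil marker list above, and the part of such cells was not tested. Itga3 and Itgb5 did not pass, and Itga7, Itga8, Itga11, Itgad and Itgb8 were not tested for want of reads.

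**Figure D3:**
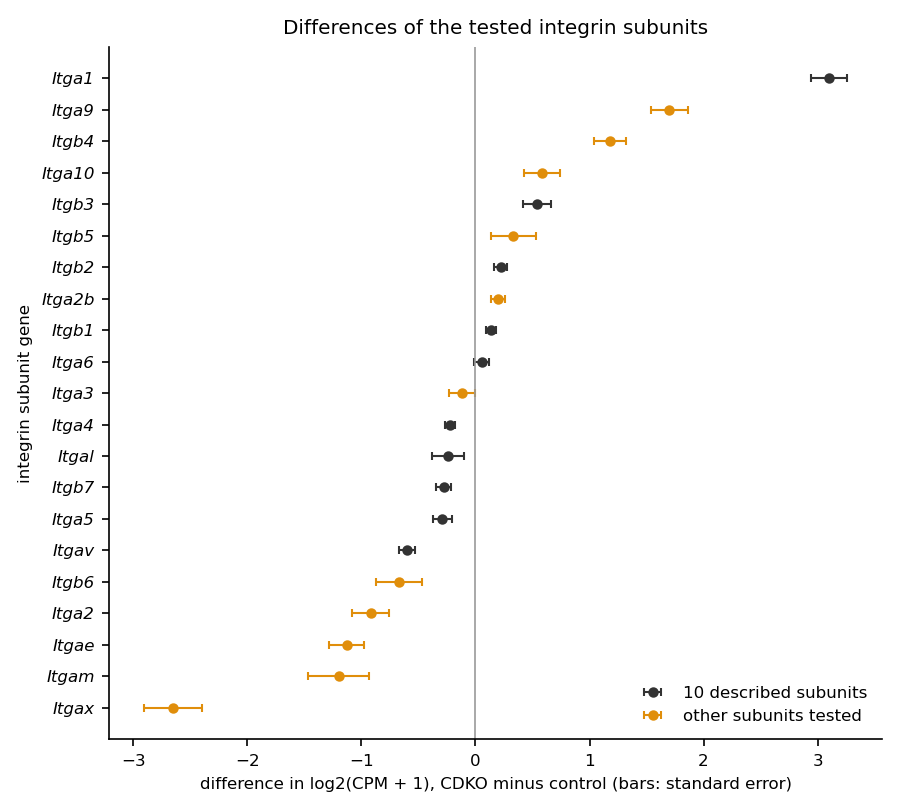
Difference in log2(CPM + 1), CDKO minus control (horizontal axis), for the 10 described integrin subunit genes and the other 11 tested, with the standard error from limma as bars. Itga1 lies farthest to the right at 3.10, and Itgax farthest to the left at -2.65.

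Among 22 genes that act on the beta tail or on the GTPase RAP1 upstream of it, 4 rose and 9 fell (median difference -0.01), where 66.2% of all tested genes (31.1% higher, 35.2% lower) were called. Tln1, the talin that switches integrins on in blood cells, fell to 774, 893 and 848 CPM in CDKO libraries, against 1152, 1134 and 1088 CPM in control libraries (limma adjusted p = 3.14e-05). Fermt3, the kindlin of blood cells, was 676 ± 35.2 CPM in CDKO and 665 ± 7.25 CPM in control libraries (SD, n = 3 each) and did not pass (limma adjusted p = 0.682). The kindlin gene of other tissues, Fermt2, fell, with no read in CDKO libraries and 2.88 ± 0.193 CPM in control libraries, at least 31.6-fold lower against a floor of 3 counts in a CDKO library (limma adjusted p = 8.53e-07). Rap1b rose to 301 ± 13.2 CPM in CDKO, against 220.3 ± 20.4 CPM in control libraries, and Rapgef1, an exchange factor for RAP1, rose to 124 ± 6.25 CPM in CDKO, against 82.6 ± 2.49 CPM in control libraries (SD, n = 3 each; limma adjusted p = 8.04e-05 and 4.7e-06). Kank1 and Skap1, each under 5 CPM in every library, fell.

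Of 33 tested genes of adhesion complexes and their kinases, 13 rose and 7 fell (median difference 0.12), against 66.2% of all tested genes (31.1% higher, 35.2% lower). Ptk2, the focal adhesion kinase, rose to 57.0, 49.4 and 57.0 CPM in CDKO libraries, against 21.99, 25.97 and 28.03 CPM in control libraries (limma adjusted p = 4e-06). Rsu1, a partner of the PINCH adaptors at adhesions, rose to 146 ± 1.48 CPM in CDKO, against 107 ± 0.961 CPM in control libraries, and Git1, a paxillin-binding scaffold, fell to 152 ± 5.22 CPM in CDKO, against 228 ± 14.7 CPM in control libraries (SD, n = 3 each).

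Of 23 tested integrin ligand genes 11 rose and 10 fell (median difference 0.04), against 66.2% of all tested genes (31.1% higher, 35.2% lower). Fn1, fibronectin, which alpha5 beta1 binds, fell to 0.426, 1.23 and 0.0935 CPM in CDKO libraries, against 14.8, 15.3 and 14.5 CPM in control libraries (limma adjusted p = 4.72e-07). Spp1, osteopontin, rose to 9.66 ± 0.284 CPM in CDKO, against 2.10 ± 0.166 CPM in control libraries (SD, n = 3 each; limma adjusted p = 1.1e-06). Col1a1, a chain of the collagen that alpha1 beta1 can bind, rose to 8.72 ± 0.788 CPM in CDKO, against 0.349 ± 0.0652 CPM in control libraries (SD, n = 3 each; limma adjusted p = 1.16e-07). Col1a2, another collagen gene of this list that is named after values were seen, went the other way. It fell to 32.29 ± 1.98 CPM in CDKO, against 45.73 ± 3.99 CPM in control libraries (SD, n = 3 each; limma adjusted p = 0.000374). Col1a1 and Col1a2 are also in the stromal marker list above, and the part of stromal cells was not tested. Vcam1, the ligand of alpha4 beta1, fell to 0.873 ± 0.828 CPM in CDKO, against 5.89 ± 0.822 CPM in control libraries, and Icam1, a ligand of alpha L beta2, rose to 96.3 ± 3.41 CPM in CDKO, against 63.4 ± 10.4 CPM in control libraries (SD, n = 3 each; limma adjusted p = 4.75e-05 and 0.000208). Npnt, a ligand of alpha8 beta1, fell. Vcam1 is also a macrophage marker, and the 11 macrophage markers found summed to 54.9 to 59.2 CPM in CDKO and 45.3 to 54.7 CPM in control libraries, with Marco at 0 in all of them. Of 9 tested, 5 were called higher and 3, Vcam1 among them, lower. Csf1r stood at 21.5 ± 1.68 CPM in CDKO and 3.22 ± 0.626 CPM in control libraries. Mrc1 stood at 0.486 ± 0.403 CPM in CDKO and 6.755 ± 3.16 CPM in control libraries (SD, n = 3 each). The part of macrophages was not tested.

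Other adhesion molecules of the HSC surface went both ways, with 6 of 18 tested genes called higher and 6 lower, against 66.2% of all tested genes (31.1% higher, 35.2% lower). The number lower was 3 without CDKO replicate 1, without control replicate 3 or in edgeR, and 4 without CDKO replicate 3, control replicate 1 or control replicate 2. Esam, Bcam and Cd9 rose and Alcam fell, with Cd9, a tetraspanin that associates with integrins, at 174 ± 10.04 CPM in CDKO and 115 ± 9.78 CPM in control libraries (SD, n = 3 each; limma adjusted p = 1.44e-05). Alcam stood at 39.5 ± 4.08 CPM in CDKO and 74.5 ± 2.27 CPM in control libraries (SD, n = 3 each; limma adjusted p = 2.77e-06).

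**Figure D4:**
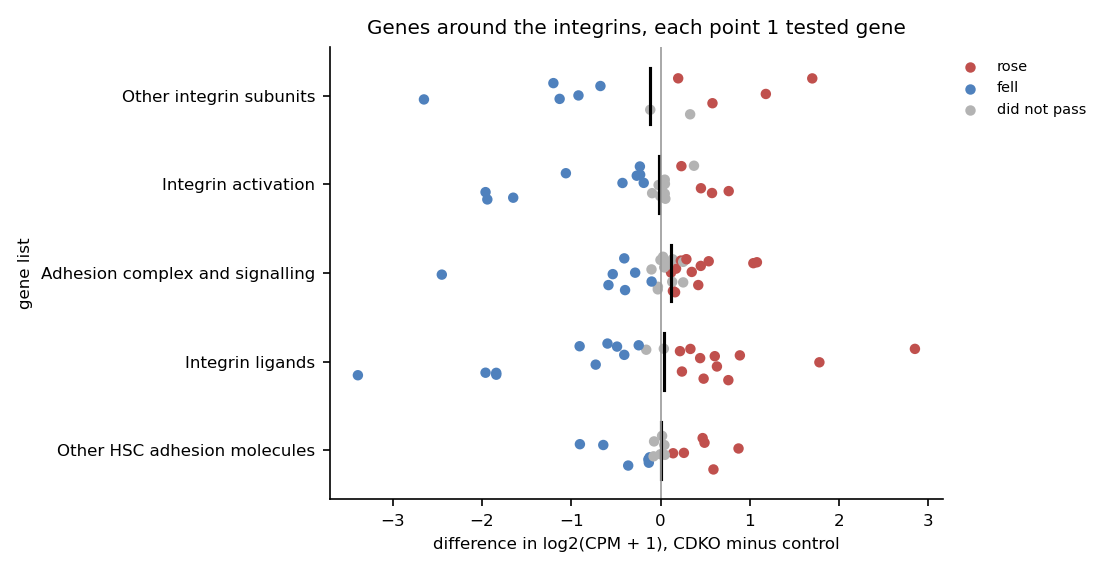
Difference in log2(CPM + 1), CDKO minus control (horizontal axis), of every tested gene in the 5 lists around the integrins, with genes that passed limma's adjusted p of 0.05 coloured by direction. Black bars are list medians, which lie between -0.12 and 0.12, while single genes range to -3.39 for Fn1 and 2.85 for Col1a1.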

How the data were processed

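The authors' deposited table gives a level per gene in each library, in counts per 1000000 (CPM). TopHat2, HTSeq, DESeq2 and the build mm10 are named in the submitters' processing notes, with no version; the annotation is not given in the sources used here. RNA was amplified with SMARTer chemistry and made into Nextera XT libraries, per the labels' protocols. Deposited baseMean (a signal after size factors), log2 fold change (control over CDKO), stat (a score), p-value and adjusted p-value columns were not used in tests. Whole reads were recovered from the CPM steps (100% of values above 0, to within 0.01 of a read).

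Genes with a mean of at least 10 reads (0.255 CPM) were tested with limma 3.58.1 (R 4.3.3; eBayes with trend) on log2(CPM + 1), two-sided, Benjamini-Hochberg adjusted over all genes, with no covariate. This scale understates the change of low genes. The test was tested on simulated data. Left out were 12 rows named by dates and 2 that share a symbol. Members and lists were chosen with earlier results of these data known. Named genes are all members, every other integrin called, and, per list, the 4 with the smallest p plus Tln1, Fermt3, Rap1b, Ptk2, Vcam1, Fn1 and Icam1. A gene that this rule names is not reported here. Ratios of a gene between groups are of mean CPM, except that of Itga1, which is of summed reads over total reads. Ratios between genes were taken within each library, per transcript length, before averaging. Transcript lengths are of the longest coding transcript in GENCODE M21 (GRCm38). P-values rest on the spread between 3 pools a group. In limma the p-values and SE use a variance moderated toward a trend over all genes, not the spread of a gene alone. Counting intervals and floors (3 counts) cover counting error only. Alternatives were other filters, pseudocounts and scalings, a threshold of 0.01, a replicate block, each library left out, edgeR 4.0.16 and DESeq2 1.42.0.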

Additional observations from a re-analysis of the deposited data

How the results depend on the processing

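The number of genes called stayed within 1.5 times the 9096 reported, from 6576 (a mean of at least 10 CPM) to 9506 (DESeq2). The integrin members past the threshold numbered 7 to 9 under every alternative run, with Itgal added without CDKO replicate 3. All 10 members were tested except under the filter of 10 CPM, which tested 9 and called 7. Among all genes 66.2% passed in the main test, and nothing is read from the count of members. The filter of 10 CPM tests fewer genes, with 6576 of 9885 called, against 9096 of 13732 in the main test. It called 3 of 4 other integrin subunits, 8 of 16 integrin activation genes and 12 of 14 ligand genes. In the main test these were 9 of 11, 13 of 22 and 21 of 23. Leaving out each library in turn kept the count called between 8 and 9 for other subunits, 12 and 14 for activation genes, 18 and 20 for adhesion complex genes, 18 and 21 for ligands, and 9 and 11 for other adhesion molecules. Itga6 was the only member whose sign changed, without CDKO replicate 3 (-0.000335), and the other 9 members kept their sign in all alternatives run. Quantile normalization moved the median difference of all genes by 0.043. No label ties a replicate number to a shared batch or day, and deviations of libraries with the same number correlated at 0.0518, 0.0483 and -0.0120, so the block is reported here only. With replicate number as a block 9241 genes were called, and 8 members, 9 other subunits, 13 activation, 20 adhesion complex, 21 ligand and 12 other adhesion genes. Depth limits Itga1 in control libraries and the 5 untested subunits.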
